A study of Mus musculus with 24 samples.

Results

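The genes described here are Phgdh, Psat1 and Psph, the 3 enzymes that make serine from a glycolytic intermediate, taken by symbol from a table of 54532 genes in 24 RNA sequencing libraries. The cells were HY19636, a mouse pancreatic ductal adenocarcinoma (PDAC) line, whose Phgdh gene was labelled as wild type (WT) or as knocked out (KO). Each genotype was grown in medium with serine/glycine or in serine/glycine free medium, and either as a monoculture without hepatocytes or as a coculture with hepatocytes. The 3 factors were crossed into 8 groups of 3 libraries, and the title of the series concerns serine that hepatocytes supply to pancreatic cancer cells in liver metastasis. The edited part of Phgdh, whether each genotype is a single clone, the time in culture, and how the cancer cells were separated from hepatocytes before RNA extraction are all not stated in the labels. Nor do the labels call the replicates separate cultures; each p-value therefore refers to the spread among libraries, and that spread may be technical only.

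Serine synthesis branches from glycolysis at 3-phosphoglycerate. Phgdh (phosphoglycerate dehydrogenase) oxidises this intermediate in the committed step, Psat1 (phosphoserine aminotransferase) adds an amino group taken from glutamate, and Psph (phosphoserine phosphatase) removes the phosphate to release serine. The product feeds protein synthesis, glycine and folate-bound one-carbon units, cysteine, and the head groups of membrane lipids. The transcription factor Atf4 is a known activator of the pathway when amino acids are short, and the pathway is known to be induced in cultured cancer cells by serine shortage.

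All 3 genes lie on the minus strand of GRCm38, and their positions and lengths in the deposited table match the GENCODE M21 annotation. Phgdh (ENSMUSG00000053398) covers chr3:98313170-98339990, with 2486 exonic bases in the table and 12 exons in the 1893-base principal transcript. Psat1 (ENSMUSG00000024640) covers chr19:15904678-15947337, with 4254 exonic bases and a principal transcript of 2617 bases in 9 exons. Psph (ENSMUSG00000029446) covers chr5:129765558-129787449, with 4329 exonic bases and a principal transcript of 1733 bases in 8 exons. The 452 exonic bases at its 5′ end (chr5:129786998-129787449, 10.4% of its exonic length) are shared with Cct6a, a chaperonin subunit gene on the opposite strand. The labels do not state whether reads were counted by strand, so reads in those bases could not be assigned with certainty.

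The bases upstream of the annotated RefSeq starts (GRCm38.p6) of Phgdh and Psat1 are shown because these genes rose together in 3 of the 4 coculture comparisons. Each line runs towards the start on the gene's own strand, over the 229 bases at chr3:98339991-98340219 for Phgdh and the 250 bases at chr19:15925060-15925309 for the outer of the RefSeq starts of Psat1, and leaves out bases annotated as exonic. Capitals mark complete matches to the searched motifs. The bases before the Psph start are annotated as exonic in Cct6a and are not printed. Phgdh and Psat1 did not move together throughout: in KO against WT, Phgdh was lower and Psat1 higher wherever both were called.

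Phgdh: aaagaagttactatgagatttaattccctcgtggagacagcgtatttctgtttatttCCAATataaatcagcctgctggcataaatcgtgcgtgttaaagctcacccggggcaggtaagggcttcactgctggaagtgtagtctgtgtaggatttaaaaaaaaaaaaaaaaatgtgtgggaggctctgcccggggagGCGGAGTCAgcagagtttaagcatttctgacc

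Psat1: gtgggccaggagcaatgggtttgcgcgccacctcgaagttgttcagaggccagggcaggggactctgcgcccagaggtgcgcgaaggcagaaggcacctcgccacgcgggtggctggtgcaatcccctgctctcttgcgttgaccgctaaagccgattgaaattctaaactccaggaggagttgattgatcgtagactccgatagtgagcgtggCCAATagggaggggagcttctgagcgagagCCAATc

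The motifs were searched on both strands of windows running from 250 bases before to 50 after each start, and no matches of different motifs overlapped (0 cases). The CCAAT box (CCAAT, or ATTGG on the opposite strand), which was added after the sequences had been seen, had 2 matches in the Phgdh window, 3 in the outer Psat1 window and 2 in Psph. It is present in 37.4% of all 32851 windows. The GC box (GGGCGG, or CCGCCC on the opposite strand) had 3 matches in Psph, 2 in the window of the inner Psat1 start and 0 in Phgdh, against 35.7% of windows with a match. The antioxidant response element core (TGACNNNGC) had 1 match in Phgdh, which reads GCGGAGTCA on the strand shown, and 1 in Psph, which lies after the start; 12.4% of windows hold it. The amino acid response element core (TGATGNAA, in 3.97% of windows) and the E-box (CACGTG, in 7.15%) had 0 matches in the windows of the 3 genes. A match is only a match of letters, and a missing one says only that these letters are not in these windows.

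The libraries held 15740081 to 23479425 reads assigned to genes. The mean correlation of a library with the others of its group was 0.980 to 0.992 for most libraries, but 0.968 for KO monoculture with serine/glycine replicate 1 and 0.979 for replicates 1 and 2 of KO coculture in serine/glycine free medium. Results that rest on the library of each group that stood farthest off, KO monoculture with serine/glycine replicate 1 and KO coculture free of serine/glycine replicate 2, are given with and without them. Of 10 ductal epithelial markers, 8 were expressed above the filter, with a summed level of 1207 to 4605 FPKM. Of 24 hepatocyte markers, 0 passed the filter; their summed level was 0.148 to 1.495 FPKM per library, and 14 to 20 of them were at 0 in every library of a group. FPKM is a fragment count corrected for the exonic length of the gene and for the depth of the library.

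The 3 transcripts differed widely in level. Phgdh stood at 372 to 1405 FPKM over all libraries, Psat1 at 95.3 to 183 FPKM and Psph at 28.02 to 44.4 FPKM. With FPKM recomputed on the principal transcript instead of all exons, the levels in WT monoculture with serine/glycine were 1211 ± 21.8 for Phgdh, 172 ± 3.11 for Psat1 and 82.4 ± 2.90 for Psph (SD, n = 3), so the order of the genes did not rest on the length used. All values below use the deposited lengths.

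Phgdh, the gene labelled as knocked out, kept a measurable transcript in every KO library. In WT monoculture with serine/glycine it stood at 934, 929 and 903 FPKM, and in the serine/glycine free medium at 789, 818 and 794 FPKM. In WT coculture it stood at 1331, 1236 and 1333 FPKM with serine/glycine and at 1405, 1278 and 1249 FPKM without. These coculture libraries were the 6 highest of all 24, and how often other genes place them so was not counted. In KO monoculture it stood at 372, 548 and 529 FPKM with serine/glycine and at 616, 732 and 737 FPKM without. In KO coculture it stood at 885, 869 and 868 FPKM with serine/glycine and at 817, 606 and 726 FPKM without. KO libraries spanned 372 to 885 FPKM (median 729, n = 12) and WT libraries 789 to 1405 FPKM (median 1085, n = 12), so the genotypes overlapped across conditions although they did not within any single condition. Of all genes tested, 23.8, 38.8, 30.4 and 29.3% also had every KO library below every WT library in monoculture with serine/glycine, monoculture without, coculture with and coculture without. A transcript that lacks an edited part can still be counted, so these levels check the KO label only in part. The processed pseudogenes of Phgdh, AC126254.3 and Phgdh-ps1, held 11 reads and 1 read over all 24 libraries.

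Psat1 had its lowest values in the WT monocultures. With serine/glycine they were 108, 106 and 104 FPKM, and without 95.3, 102 and 95.5 FPKM. In WT coculture Psat1 stood at 141, 141 and 133 FPKM with serine/glycine and at 144, 140 and 143 FPKM without. KO monoculture with serine/glycine gave 154, 133 and 133 FPKM, and KO monoculture without gave 173, 168 and 170 FPKM. KO coculture gave 175, 179 and 183 FPKM with serine/glycine and 163, 183 and 170 FPKM without. WT and KO libraries therefore overlapped only between KO monoculture with serine/glycine and the WT cocultures, over 133 to 144 FPKM.

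Psph varied least and was ordered by genotype. In WT monoculture it stood at 34.3, 32.4 and 32.3 FPKM with serine/glycine and at 31.7, 31.0 and 29.4 FPKM without. In WT coculture it stood at 28.6, 28.02 and 29.3 FPKM with serine/glycine and at 32.2, 30.6 and 28.1 FPKM without. All 12 KO libraries lay above all 12 WT libraries, as they did for 4.75% of all genes tested: the lowest KO value was 35.1 FPKM and the highest WT value 34.3 FPKM. KO monoculture gave 35.1, 41.0 and 41.0 FPKM with serine/glycine and 39.4, 44.4 and 42.3 FPKM without, and KO coculture gave 36.2, 37.2 and 36.1 FPKM with and 37.3, 36.1 and 38.0 FPKM without.

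**Figure D1:**
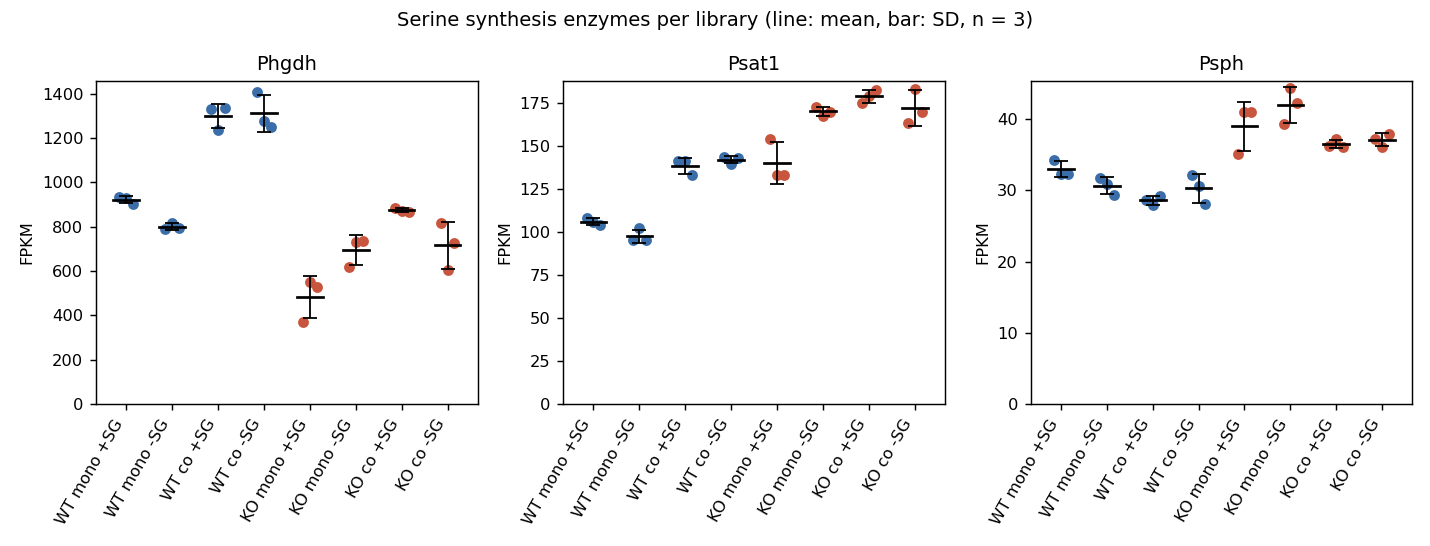
FPKM of Phgdh, Psat1 and Psph in each library (y axes from 0) by group (x axes; WT blue, KO red; mono, monoculture; co, hepatocyte coculture; +SG and -SG, with and free of serine/glycine); lines are means and bars SDs over 3 libraries. Phgdh is highest in the WT cocultures at 1236 to 1405 FPKM, and every KO value of Psph (35.1 FPKM or more) lies above every WT value.

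Ordered by mean, the Phgdh groups ran from KO monoculture with serine/glycine (483 ± 96.6 FPKM) to WT coculture without (1311 ± 83.0). Neighbouring groups whose ranges overlapped were KO monoculture without serine/glycine (695 ± 68.6), KO coculture without (716 ± 106) and WT monoculture without (800 ± 15.5), and the WT cocultures with (1300 ± 55.2) and without. For Psat1 the order ran from WT monoculture without serine/glycine (97.6 ± 3.81 FPKM) to KO coculture with (179 ± 3.83). WT coculture with (139 ± 4.66), KO monoculture with (140 ± 12.1) and WT coculture without (142 ± 2.09) could not be separated by range. Among the top KO groups, coculture without (172 ± 10.3) overlapped monoculture without (170 ± 2.45) and coculture with, while the ranges of those other groups did not overlap each other. Psph ran from 28.6 ± 0.630 FPKM in WT coculture with serine/glycine to 42.0 ± 2.52 in KO monoculture without.

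The comparison of KO with WT asks how the pathway enzymes stood in cells labelled as Phgdh KO. Changes are differences of log2(FPKM + 1) with their standard error, from limma fitted on all 12061 genes with an FPKM of 1 or more in 3 or more libraries. A gene was called at a Benjamini-Hochberg adjusted p under 0.05. Psat1 and Psph were higher in KO in all 4 conditions, and Phgdh was lower in 3 of 4. In monoculture with serine/glycine, all 3 genes were called, against 42.7% of all genes tested. Phgdh changed by -0.95 ± 0.116 (limma adjusted p = 1.85e-06), Psat1 by 0.40 ± 0.0540 (adjusted p = 7.54e-06) and Psph by 0.23 ± 0.0606 (adjusted p = 0.00428). The Psph call was lost when only the libraries of these 2 groups entered the fit (adjusted p = 0.0863). Without the 2 libraries that stood farthest off, 1 of which is in this KO group, the values were -0.78, 0.33 and 0.31. In coculture with serine/glycine all 3 were called, against 43.9% of genes: Phgdh by -0.57 (adjusted p = 0.000504), Psat1 by 0.37 (1.67e-05) and Psph by 0.34 (0.00014).

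In monoculture free of serine/glycine the KO increases were 0.79 for Psat1 (adjusted p = 7.73e-11) and 0.44 for Psph (1.99e-06), while 73.6% of all genes were called. Phgdh was not called there: its change was -0.21 (95% interval -0.45 to 0.04, adjusted p = 0.115), although the 3 KO libraries lay below the 3 WT libraries. Its sign depended on scaling, since quantile normalization turned the value to 0.19 (adjusted p = 0.0569). It was called as lower when only these 2 groups were fitted (adjusted p = 0.0492) and when the 2 libraries farthest from their groups were left out (0.00593). In coculture free of serine/glycine all 3 genes were called, against 53.6% of genes, with Phgdh at -0.88 (3.13e-06), Psat1 at 0.27 (0.000296) and Psph at 0.29 (0.000546); without those 2 libraries the values were -0.76, 0.23 and 0.31. With calls this frequent among all genes, a count out of 3 genes says nothing particular about the members. The share of genes with a larger absolute change than Psat1 was 27.4, 34.4, 31.3 and 53.3% in the 4 conditions as ordered above with monoculture first and serine/glycine before its withdrawal; for Phgdh it was 4.27, 79.7, 14.9 and 9.48%, and for Psph 50.4, 59.6, 34.7 and 51.4%. Under quantile normalization the Psph change in monoculture free of serine/glycine was 0.21 (adjusted p = 0.00175). Cct6a, whose exons overlap Psph, was higher in KO by 0.98 in that condition (adjusted p = 1.73e-07), at 135 ± 17.2 against 67.3 ± 1.33 FPKM. In the other conditions its change was 0.10 with serine/glycine in monoculture (adjusted p = 0.483), -0.15 in coculture with (0.29) and 0.15 in coculture without (0.267). Its part in the Psph values was not tested.

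**Figure D2:**
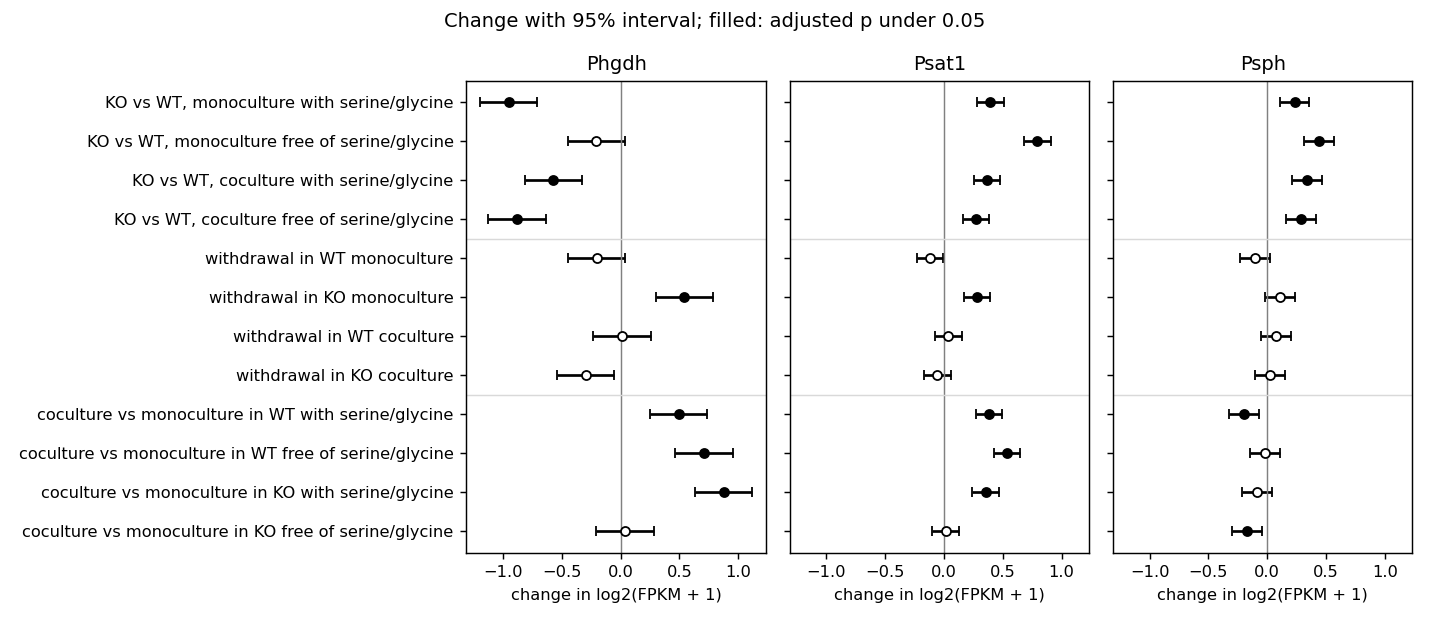
Change in log2(FPKM + 1) (x axes) with its 95% interval for the 12 comparisons of 2 groups (rows: KO minus WT, medium free of serine/glycine minus medium with it, coculture minus monoculture); filled points have an adjusted p under 0.05. Psat1 and Psph lie above 0 in all 4 genotype rows, and Phgdh and Psat1 lie above 0 in the first 3 coculture rows.

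Withdrawal of serine and glycine left the 3 transcripts of WT cells without a call in either culture. In WT monoculture 0 of 3 genes were called by limma, 1 of 3 had an unadjusted p under 0.05 (Psat1), and limma voom on the recovered reads called 0; 1.63% of all genes were called. The changes were -0.20 for Phgdh (95% interval -0.45 to 0.04, adjusted p = 0.536), -0.12 for Psat1 (-0.23 to -0.0044, 0.393) and -0.10 for Psph (-0.23 to 0.02, 0.562). All 3 had libraries in the free medium that lay below those with serine/glycine, without overlap, as did 14% of all genes tested. With only these 2 groups in the fit, the Phgdh value of -0.20 was called (adjusted p = 0.0311). In WT coculture 0 of 3 were called by limma, with 0 at an unadjusted p under 0.05 and 0 by voom, against 0.738% of all genes. The values were 0.01 for Phgdh (-0.23 to 0.25), 0.04 for Psat1 (-0.08 to 0.15) and 0.08 for Psph (-0.05 to 0.20), and the ranges of all 3 overlapped.

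In KO monoculture, withdrawal raised Phgdh and Psat1. Phgdh rose by 0.54 ± 0.116 (adjusted p = 0.000371), from 483 ± 96.6 to 695 ± 68.6 FPKM, and Psat1 by 0.28 ± 0.0540 (0.000115), from 140 ± 12.1 to 170 ± 2.45 FPKM, with no overlap of libraries for either; 34.2% of all genes rose without overlap in the same way. Psph changed by 0.11 (95% interval -0.02 to 0.23, adjusted p = 0.125) and was not called. Its value was higher without serine/glycine in each of the 3 same-numbered pairs, and it was not called with the pairs as a block in a fit of these groups alone (adjusted p = 0.14). Of all genes, 70.8% were called in this comparison, and 46.2% had a larger change than Phgdh and 69.4% a larger change than Psat1. Under quantile normalization the Phgdh change was 0.84, the Psat1 change was no longer called (0.15, adjusted p = 0.0711) and the sign of Psph turned (-0.05). KO monoculture with serine/glycine replicate 1 held the lowest Phgdh (372 FPKM), the highest Psat1 (154) and the lowest Psph (35.1) of its group. Without it and KO coculture free of serine/glycine replicate 2, the changes were 0.36 for Phgdh (adjusted p = 0.000151), 0.35 for Psat1 (1.76e-07) and 0.03 for Psph (0.594).

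In KO coculture, 0 of 3 genes were called after withdrawal by limma, 1 of 3 had an unadjusted p under 0.05 (Phgdh) and voom called 1, while 29.9% of all genes were called. Phgdh changed by -0.30 (95% interval -0.54 to -0.05, adjusted p = 0.0594), and its libraries did not overlap, at 868 to 885 FPKM with and 606 to 817 FPKM without, as was so for 21.4% of all genes in the same direction. The voom value was -0.29 (adjusted p = 0.0433). Without KO coculture free of serine/glycine replicate 1 the Phgdh change was called at -0.40 (adjusted p = 0.0166), and without that group's replicate 2, the lowest for Phgdh, and KO monoculture with serine/glycine replicate 1 it was -0.18 (0.0613). Psat1 changed by -0.06 (-0.17 to 0.06, 0.442) and Psph by 0.02 (-0.10 to 0.15, 0.794).

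Coculture with hepatocytes raised Phgdh and Psat1 in 3 of the 4 settings and did not raise Psph in any. In WT cells with serine/glycine, Phgdh rose by 0.49 ± 0.116 (adjusted p = 0.00272), a ratio of mean FPKM of 1.41, and Psat1 by 0.38 ± 0.0540 (1.56e-05), a ratio of 1.31; 31.2% of all genes were called. Psph fell by 0.20 ± 0.0606 on the log2 scale (adjusted p = 0.0175), from 33.0 to 28.6 FPKM. That call was lost without WT monoculture with serine/glycine replicate 1 (-0.17, adjusted p = 0.0797) and without WT coculture with serine/glycine replicate 2 (-0.18, 0.0623). In WT cells free of serine/glycine, where 28.1% of genes were called, Phgdh rose by 0.71 (9.44e-05) and Psat1 by 0.54 (2.03e-07), and Psph changed by -0.02 (95% interval -0.15 to 0.11, 0.868).

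In KO cells with serine/glycine, where 40% of all genes were called, coculture raised Phgdh by 0.88 ± 0.116 (adjusted p = 5.86e-06), from 483 to 874 FPKM, and Psat1 by 0.35 ± 0.0540 (3.04e-05), from 140 to 179 FPKM. Without the 2 libraries that stood farthest off the rises were 0.70 and 0.42, and the Psat1 rise was 0.18 under quantile normalization (adjusted p = 0.0405). Psph changed by -0.09 (-0.22 to 0.04, 0.253); it was called at -0.16 without KO monoculture with serine/glycine replicate 1 (0.0259) and under quantile normalization (-0.16, 0.0221). In KO cells free of serine/glycine, where 71.3% of genes were called, neither rise was found: Phgdh changed by 0.04 (-0.21 to 0.28, 0.788) and Psat1 by 0.02 (-0.10 to 0.13, 0.815), with overlapping libraries. Without the 2 libraries that stood farthest off these values were 0.15 (0.0599) and -0.031 (0.474). Psph was called lower by 0.17 on the log2 scale (-0.17, adjusted p = 0.0159). Cct6a, whose exons overlap Psph, was also lower in this comparison (-0.65, limma adjusted p = 4e-05), and its part in the Psph value was not tested. Under quantile normalization Phgdh was called lower here (-0.41, adjusted p = 0.000358), and the Psph value was -0.04 (0.523). The Psph call was also lost when only these 2 groups were fitted (0.0561), without KO monoculture free of serine/glycine replicate 2 (-0.13, 0.0848) and without KO coculture free of serine/glycine replicate 2 (-0.15, 0.0531). In cocultures, a change in bulk RNA can reflect fewer cells of a type or less RNA per cell, and these cannot be told apart. The hepatocyte markers were at or near 0 in monocultures and cocultures alike, as given above.

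Differences between these responses were tested as interactions. Withdrawal in monoculture acted differently in KO than in WT cells: the KO change minus the WT change was 0.74 ± 0.164 for Phgdh (adjusted p = 0.000634), 0.40 ± 0.0764 for Psat1 (0.000158) and 0.21 ± 0.0857 for Psph (0.0422), with 61.2% of all genes called. The Psph call was lost in several alternatives, among them median-ratio scaling (0.19, adjusted p = 0.0649) and voom (0.19, 0.0712). Without the 2 libraries that stood farthest off the values were 0.57, 0.47 and 0.14, and the adjusted p of Psph was 0.11. The same difference in coculture was called for 0 of 3 genes by limma, with 0 at an unadjusted p under 0.05 and 0 by voom (14.4% of all genes). Its values were -0.31 for Phgdh (adjusted p = 0.203), -0.09 for Psat1 (0.405) and -0.05 for Psph (0.693). Cct6a, whose exons overlap Psph, changed with withdrawal by 0.75 in KO monoculture (limma adjusted p = 7.15e-06) and by -0.13 in WT monoculture (0.741). Its part in the Psph difference in monoculture was not tested.

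The coculture response free of serine/glycine was smaller in KO than in WT by 0.67 ± 0.164 on the log2 scale for Phgdh (interaction -0.67, adjusted p = 0.00158) and by 0.52 ± 0.0764 for Psat1 (-0.52, 7.92e-06); Psph was not called (-0.15, 0.128), and 60.9% of all genes were. The Phgdh value was -1.07 under quantile normalization, and without the 2 libraries that stood farthest off the values were -0.56 for Phgdh and -0.57 for Psat1. With serine/glycine, 0 of 3 genes had a called difference in the coculture response by limma, 1 had an unadjusted p under 0.05 (Phgdh) and voom called 0 (10.4% of all genes); the values were 0.38 for Phgdh (95% interval 0.04 to 0.73, adjusted p = 0.158), -0.03 for Psat1 (0.84) and 0.11 for Psph (0.465).

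Within KO cells, withdrawal in coculture minus withdrawal in monoculture was -0.84 ± 0.164 for Phgdh (adjusted p = 0.000233) and -0.34 ± 0.0764 for Psat1 (0.00086), and -0.08 for Psph (0.427); 57.7% of all genes were called. For Phgdh it was -0.55 (adjusted p = 0.000128) without KO monoculture with serine/glycine replicate 1 and KO coculture free of serine/glycine replicate 2, and for Psat1 it was -0.46 (1.09e-06). Under quantile normalization Psat1 was not called for this difference (-0.16, adjusted p = 0.187) nor for the genotype difference in monoculture (0.21, 0.0756). Within WT cells 0 of 3 genes were called by limma, with 0 at an unadjusted p under 0.05 and 0 by voom, against 1.67% of all genes; the values were 0.21 for Phgdh (0.651), 0.15 for Psat1 (0.405) and 0.18 for Psph (0.382).

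The ratio of Phgdh to Psat1 followed genotype. In WT libraries Phgdh stood at 8.02 to 10.01 times the FPKM of Psat1, and in KO libraries at 2.42 to 5.06 times, with no overlap between the 12 and 12 libraries. How often other pairs of genes separate in this way was not tested. The mean ratio in WT was 8.70 ± 0.0848 in monoculture with serine/glycine, 8.20 ± 0.161 without, 9.39 ± 0.630 in coculture with and 9.22 ± 0.518 in coculture without. In KO the same groups stood at 3.505 ± 0.944, 4.09 ± 0.453, 4.89 ± 0.155 and 4.198 ± 0.853. With serine/glycine, the ratio of Psat1 to Psph was higher in coculture in both genotypes. It was 3.21 ± 0.0601 in WT monoculture and 4.84 ± 0.259 in WT coculture, and 3.63 ± 0.660 and 4.90 ± 0.136 in the matching KO groups. Free of serine/glycine, it was 3.18 ± 0.156 in WT monoculture and 4.70 ± 0.323 in WT coculture. The matching KO groups stood at 4.06 ± 0.31 and 4.64 ± 0.377, and their libraries overlapped. Phgdh made up 86.9 ± 0.154% of the summed FPKM of the 3 genes in WT monoculture with serine/glycine and 72.5 ± 5.35% in KO monoculture with it. Since the genotype comparisons above are of the same values, these ratios are descriptions and were not tested.

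**Figure D3:**
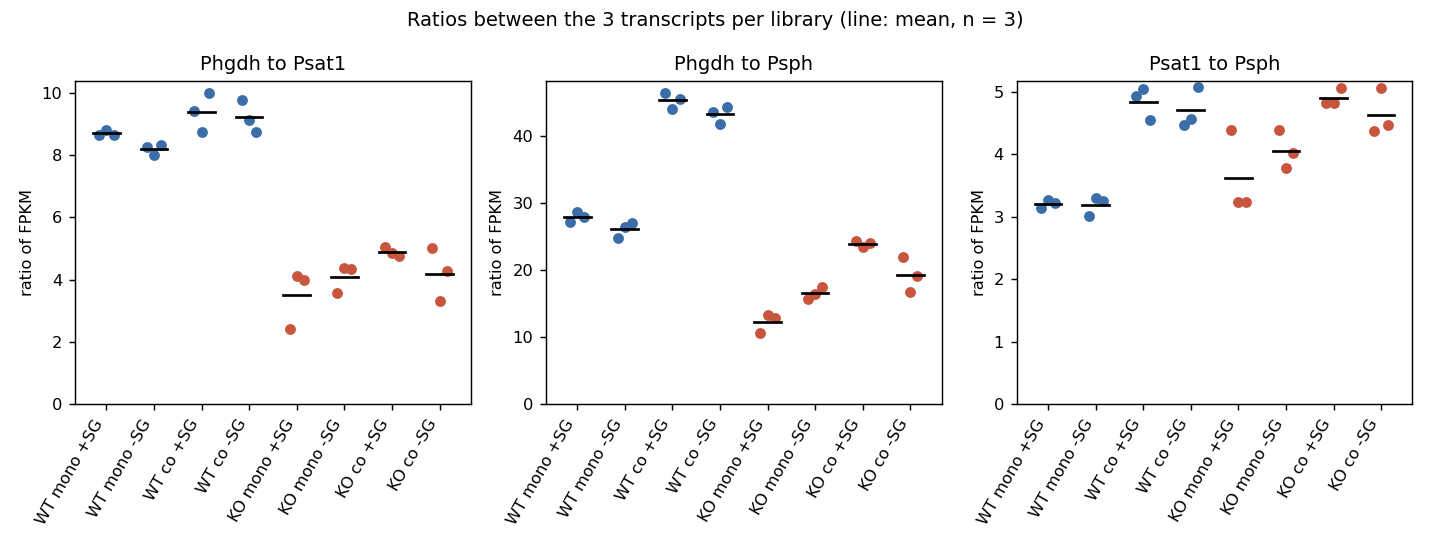
Ratios of FPKM between Phgdh, Psat1 and Psph in each library (y axes from 0) by group (x axes; WT blue, KO red, names as in the plot of levels); lines are means over 3 libraries. The Phgdh to Psat1 ratio is 8.02 to 10.01 in WT and 2.42 to 5.06 in KO, while the Psat1 to Psph ratio is higher in coculture than in monoculture in the WT groups.

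Plotted against each other, the Phgdh and Psat1 levels of WT libraries lay in separate ranges by culture. KO libraries did so with serine/glycine, whereas KO monoculture and KO coculture free of serine/glycine overlapped on both axes. Over all 24 libraries Pearson's r of log2(FPKM + 1) was -0.16, and 58.5% of the candidate genes described below had a higher r with Phgdh than Psat1 had. Within genotype and culture (n = 6 libraries each, of 2 media) r was 0.94 in WT monoculture, -0.04 in WT coculture, 0.47 in KO monoculture and -0.17 in KO coculture. The libraries within such a set share genotype, culture and medium by threes, so these values describe the plot and carry no test.

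**Figure D4:**
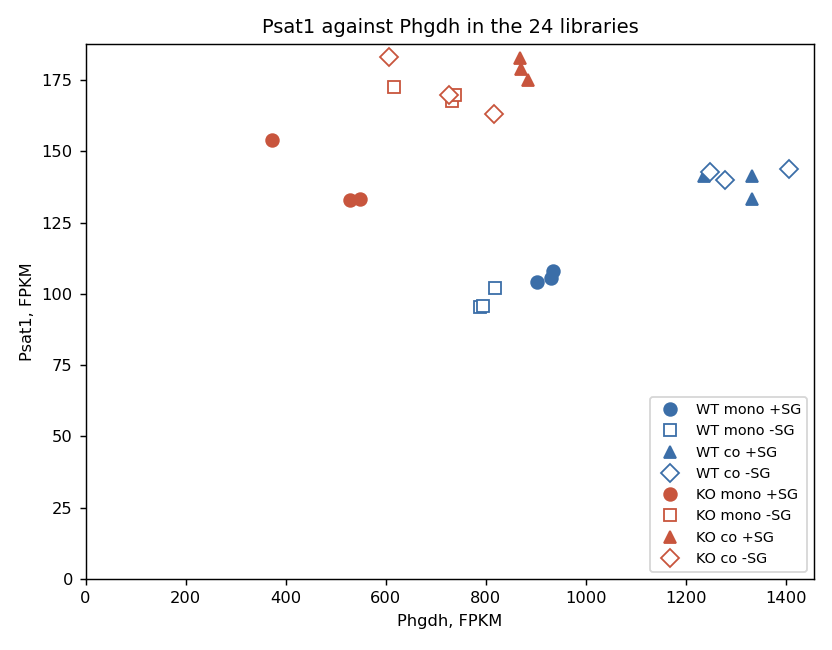
FPKM of Psat1 (y axis) against FPKM of Phgdh (x axis) in the 24 libraries, both axes from 0; colour marks genotype (WT blue, KO red), shape and filling mark culture and medium. The WT cocultures lie to the upper right of the WT monocultures, and the KO libraries lie to the left of WT libraries of the same condition and at higher Psat1.

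Genes around the pathway were followed in 6 lists holding 72 genes, of which 64 were tested: the glycolytic enzymes at the branch point, serine-glycine and folate enzymes, other serine-consuming enzymes, serine carriers, regulators, and known Atf4 target genes outside serine synthesis. For KO against WT, 22 of 64 were higher and 8 lower in monoculture with serine/glycine (42.7% of all genes called), 22 and 9 in coculture with (43.9%), 30 and 28 in monoculture without (73.6%), and 25 and 18 in coculture without (53.6%). Of 6 carriers, 4 were higher and 0 lower by limma in both conditions with serine/glycine (list medians 0.32 and 0.30, against 0.00 for all genes). Free of serine/glycine, 2 were higher and 4 lower in monoculture (median -0.27, against 0.00) and 4 higher and 2 lower in coculture (0.42, against -0.01). Slc1a4, a neutral amino acid carrier that takes serine, was the largest rise of that list on the log2(FPKM + 1) scale, at 0.64 ± 0.0477 in monoculture with serine/glycine (61.7 ± 1.43 against 39.2 ± 1.57 FPKM), 0.51 in coculture with and 0.56 in coculture without. Among Atf4 targets the largest rise on that scale in those 3 conditions was Slc7a11, the cystine carrier, at 1.38, 1.35 and 2.32. In monoculture free of serine/glycine Slc7a11 was lower in KO, at 4.21 ± 0.414 against 12.1 ± 1.03 FPKM. Of all 20 Atf4 targets, 6 were higher and 1 lower in monoculture with serine/glycine (list median 0.01), and 8 and 1 in coculture with (0.17). Free of serine/glycine, 13 were higher and 6 lower in monoculture (0.25), and 9 and 6 in coculture (0.11).

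In monoculture free of serine/glycine, the direction within the one-carbon list was split in KO against WT, with 10 of 16 higher and 6 lower. Shmt2, which splits serine into glycine and a one-carbon unit in mitochondria, had the largest fall on the log2(FPKM + 1) scale (-1.39, adjusted p = 2.53e-12), at 46.4 ± 3.32 against 123 ± 4.26 FPKM. That scale understates low genes: as a ratio of FPKM, Amt, of the glycine cleavage system, was lower by more (1.29 ± 0.364 against 3.76 ± 0.372 FPKM), and so was Aldh1l1, a folate dehydrogenase (0.0169 ± 0.0148 against 0.480 ± 0.0857 FPKM). Both were named after their values were seen. Mthfd2, a mitochondrial folate dehydrogenase, was higher by 0.45 there (adjusted p = 6.38e-09) and lower in coculture free of serine/glycine (-0.17, 0.00145). With serine/glycine its values were -0.11 in monoculture (0.0369) and -0.12 in coculture (0.0177). The first call was lost with only these groups in the fit (0.256), with voom (0.0592) and without any 1 of 5 libraries (0.0579 to 0.148), and the second without any 1 of 3 libraries (0.0625 to 0.077).

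In WT cells, withdrawal gave few calls in these lists, as it did among all genes. In WT monoculture, where 1.63% of all genes were called, 0 of 64 genes rose by limma, with 7 at an unadjusted p under 0.05 and 0 by voom, and 1 fell: Cth, which makes cysteine from cystathionine (-0.22, adjusted p = 0.0189). In WT coculture, where 0.738% of all genes were called, 0 rose, with 5 at an unadjusted p under 0.05 and 0 by voom, and 1 fell: Mthfd1l, a mitochondrial formate-producing enzyme (-0.18, 0.0415). In KO monoculture 26 rose and 30 fell, while 70.8% of all genes were called. Atf4 rose from 253 ± 85.6 to 353 ± 5.30 FPKM (0.54 ± 0.197, adjusted p = 0.0194), but the call was lost without KO monoculture with serine/glycine replicate 1, whose level of 155 FPKM was the lowest of its group (0.22, 0.187), and with same-numbered libraries as a block in a fit of these groups alone (0.0965). Asns, the asparagine synthetase and a known Atf4 target, rose by 0.40 (0.000139), and Mthfd2 by 0.44 (9.42e-09). Of the 20 Atf4 targets, however, 11 rose and 7 fell (list median 0.25). Shmt2 fell by 1.62 on the log2 scale (3.52e-13), from 146 ± 18.5 to 46.4 ± 3.32 FPKM, and Slc7a11 fell by 2.43 (1.01e-14). All 5 called glycolytic genes fell, out of 6, with a list median of -1.10 against 0.00 for all genes. They include Gapdh, whose counts are uncertain, as described below. Its libraries scattered (30.7 to 82.3 FPKM with serine/glycine, 0.633 to 14.97 without), and its limma adjusted p reached 0.0567 in an alternative run. In KO coculture 13 rose and 21 fell, while 29.9% of all genes were called. Atf4 fell from 325 ± 2.22 to 199 ± 62.9 FPKM (-0.75, 0.00807), a call lost without KO coculture free of serine/glycine replicate 2 (-0.51, 0.0662), while Asns rose by 0.37 (0.00159). Of the 20 Atf4 targets, 5 rose and 6 fell in KO coculture (list median -0.02).

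In coculture 4 or more of the 6 branch-point enzymes rose in each of the 4 settings, including the setting in which Phgdh and Psat1 were not called. In WT with serine/glycine, WT without and KO with, 4 of the 6 rose and 1 fell, with list medians of 1.47, 1.58 and 1.22 against -0.02, -0.01 and -0.01 for all genes. Pgk1, which makes 3-phosphoglycerate, rose by 2.12 ± 0.0516, 2.08 and 1.98, from 364 ± 8.90 to 1591 ± 62.6 FPKM in WT with serine/glycine, and Bpgm, a bisphosphoglycerate mutase, was the gene that fell (-0.99, -0.76 and -0.50). In KO free of serine/glycine, where Phgdh and Psat1 were not called, all 6 rose (median 2.11). Gapdh had the largest value there (4.96 ± 1.26), but its libraries scattered widely (70.6 to 158 against 0.633 to 14.97 FPKM), and this gene has many near-identical pseudogenes, so its counts are uncertain. Mthfd1l, of the one-carbon list, rose by 1.17, 0.97 and 1.05 in the first 3 settings and by 1.19 in KO free of serine/glycine, from 23.2 ± 0.530 to 54.3 ± 0.576 FPKM. Over all lists, 12 rose and 14 fell in WT with serine/glycine (31.2% of all genes called), 11 and 15 in WT without (28.1%), 14 and 16 in KO with (40%), and 31 and 25 in KO without (71.3%). Atf4 was called only in KO without serine/glycine (-0.87, adjusted p = 0.0006); its values in the other settings were -0.08 (0.812), 0.00 (0.998) and 0.43 (0.0951).

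**Figure D5:**
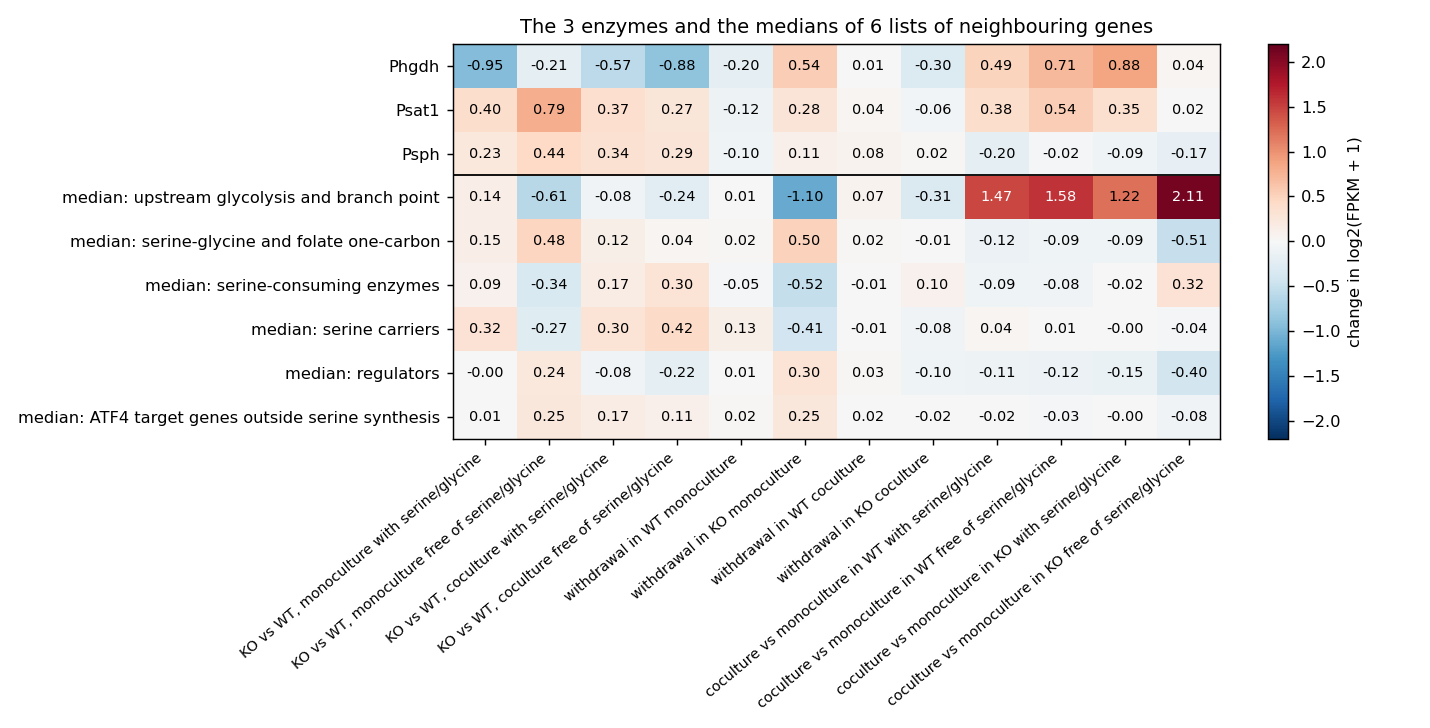
Change in log2(FPKM + 1) of Phgdh, Psat1 and Psph (rows above the line) and the median change of the tested genes of 6 lists (rows below) in the 12 comparisons (columns); red is higher, blue lower, and each cell prints its value. The branch-point glycolysis list has medians of 1.22 to 2.11 in the coculture columns and -1.10 for withdrawal in KO monoculture.

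The genes whose levels ran most like each enzyme were ranked by Pearson's r of log2(FPKM + 1) over the 24 libraries among 6361 protein-coding genes with a mean FPKM of 5 or more. For Phgdh they were Sap30 (r = 0.96) and Sin3b (0.94), subunits of the Sin3 histone deacetylase complex, Smtn (0.95), a smooth muscle cytoskeletal protein, Pdxp (0.94), a pyridoxal phosphate phosphatase, and Hexim1 (0.92), an inhibitor of the elongation factor P-TEFb. For Psat1 they were Cdh17 (0.96), a cadherin, S100a10 (0.96) and S100a11 (0.95), calcium-binding family proteins, Serpinb6a (0.95), a protease inhibitor, and Mxd1 (0.95), a Max-binding repressor. For Psph they were Polr2e (0.97), a subunit shared by RNA polymerases, Usp5 (0.95), a deubiquitinase, Maea (0.94), a ubiquitin ligase subunit, Ndufs8 (0.93), of respiratory complex I, and Pacsin2 (0.93), a membrane-shaping protein. Neither of the other enzymes ranked among the 5 genes most like any one of the 3. The libraries share 8 group means, so such values are high for many genes and are descriptions.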

How the data were processed

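The authors deposited FPKM per gene in 24 columns; HISAT2 and the builds GRCm38 and mm10 are named in the submitters' processing notes, without version, read counter or annotation release. Reads were recovered by multiplying FPKM by gene length and dividing by a step fitted per library. The smallest positive value of a library was taken as 1 read, and the step was refined from larger values. This gave whole reads for 100% of positive values (within 0.01 read). Groups came from sample titles. log2(FPKM + 1) of the 12061 genes at an FPKM of 1 or more in 3 libraries was fitted with limma 3.58.1 (mean-variance trend, two-sided, R 4.3.3), as 8 group means with 16 residual degrees of freedom, for 12 comparisons and 6 interactions. Calls were at a Benjamini-Hochberg adjusted p under 0.05. The fit was also run on simulated data with the same dispersion in all libraries. That setting holds no outlying libraries, so it does not check the calls that rest on those of the KO groups. Named genes are the 3 enzymes, the 5 most like each, the largest called rise and fall of a list, and Atf4, Asns, Shmt2 and Mthfd2; Cct6a was added after its values were seen. The members and lists were chosen with earlier results of these data known. Alternatives changed the pseudocount (0.1), filter, scaling, model, replicate block or libraries. Added after the data were seen were voom on recovered reads, median-ratio scaling, a replicate block for the KO monocultures alone (the pair of groups whose same-numbered libraries deviated together) and leaving out the 2 libraries farthest from their groups.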

Additional observations from a re-analysis of the deposited data

Results flagged for a closer look

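The responses below differed between groups by a test of the difference itself (limma interaction terms, Benjamini-Hochberg adjusted over 12061 genes). For withdrawal in monoculture, the KO change minus the WT change was 0.74 for Phgdh (adjusted p = 0.000634), 0.40 for Psat1 (0.000158) and 0.21 for Psph (0.0422). For coculture in medium free of serine/glycine, the KO change minus the WT change was -0.67 for Phgdh (0.00158) and -0.52 for Psat1 (7.92e-06). For withdrawal in KO cells, the change in coculture minus the change in monoculture was -0.84 for Phgdh (0.000233) and -0.34 for Psat1 (0.00086). Each of the 7 involves KO monoculture with serine/glycine or KO coculture free of serine/glycine, the groups that hold the 2 libraries that stood farthest from their groups. Without those libraries the 6 values of Phgdh and Psat1 were still called and that of Psph was not (0.14, adjusted p = 0.11).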

How the results depend on the processing

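Of 21 called changes of the 3 enzymes between 2 groups, 17 kept their direction and call in every alternative run, as did 4 of 7 called interactions. Quantile normalization turned the sign of Phgdh for KO against WT in monoculture free of serine/glycine (0.19) and for coculture in KO free of serine/glycine (-0.41), and of Psph for withdrawal in KO monoculture (-0.054), genotype by coculture free of serine/glycine (0.033) and withdrawal by coculture in KO (0.12). It ended the calls of Psat1 for withdrawal in KO monoculture (0.15), genotype by withdrawal in monoculture (0.21) and withdrawal by coculture in KO (-0.16), and of Psph for coculture in KO free of serine/glycine (-0.040) and genotype by withdrawal in monoculture (0.016), and made the Psph change in coculture in KO with serine/glycine a call (-0.16).

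Fitting only the groups compared ended the calls of Psph for KO against WT in monoculture with serine/glycine (0.23), coculture in KO free of serine/glycine (-0.17) and genotype by withdrawal in monoculture (0.21), and called Phgdh for KO against WT in monoculture free of serine/glycine (-0.21) and withdrawal in WT monoculture (-0.20). Without the 2 farthest libraries, Phgdh for KO against WT in monoculture free of serine/glycine (-0.21) and Psph for coculture in KO with serine/glycine (-0.16) became calls, Psph for genotype by withdrawal in monoculture (0.14) did not stay one, and the signs turned of Psat1 for coculture in KO free of serine/glycine (-0.031) and genotype by coculture with serine/glycine (0.040) and of Psph for withdrawal by coculture in KO (0.0093). voom called Phgdh for withdrawal in KO coculture (-0.29). The Psph value for genotype by withdrawal in monoculture also lost its call without a filter (0.21), with median-ratio scaling (0.19) and with voom (0.19). The causes were not tested.

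With single libraries left out, the ranges of results with a changed call or sign were as follows. For Phgdh they were -0.040 to 0.045 for withdrawal in WT coculture, -0.40 to -0.18 in KO coculture and -0.063 to 0.15 for coculture in KO free of serine/glycine. For Psat1 they were -0.031 to 0.052 for that last comparison and -0.065 to 0.040 for genotype by coculture with serine/glycine. For Psph they were 0.033 to 0.15 for withdrawal in KO monoculture, 0.14 to 0.25 for genotype by withdrawal in monoculture, and, for coculture, -0.21 to -0.17 in WT with serine/glycine, -0.062 to 0.032 in WT without, -0.16 to -0.053 in KO with and -0.22 to -0.13 in KO without. The Cct6a change for KO against WT in monoculture with serine/glycine was -0.047 without KO monoculture with serine/glycine replicate 1, also when KO coculture free of serine/glycine replicate 2 was left out with it.

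Counts of neighbouring pathway genes moved by more than 1.5 times in some alternatives. The genes called lower for KO against WT went from 8 to 3 in monoculture with serine/glycine (only these groups fitted) and from 9 to 3 in coculture with it (without KO coculture with serine/glycine replicate 2). For withdrawal in KO coculture, without KO coculture free of serine/glycine replicate 2, the genes called went from 13 to 6 higher and from 21 to 12 lower. For withdrawal in WT cells the counts of 0 and 1 ranged from 0 to 3.

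Same-numbered libraries deviated together at over 0.1 in every number for 1 of 28 pairs of groups, KO monoculture with and without serine/glycine (0.11 to 0.40), and the numbers did not pair the other groups (correlations over all pairs -0.63 to 0.40). A replicate block in a fit of those groups alone, added after the data were seen, changed no call of the 3 enzymes for withdrawal in KO monoculture (Phgdh 0.54, Psat1 0.28, Psph 0.11). In the fit of all groups the replicate block changed 1 of 54 calls, the Psph value for genotype by withdrawal in monoculture (0.21, adjusted p = 0.056). The planned edgeR fits were not run, since the deposited unit is FPKM. Depth did not limit the members, whose lowest FPKM was 28.02, but 3 libraries per group limited the precision.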
